A study of Mus musculus with 6 samples.

Results

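The genes described here are 40 genes of the cell division cycle, 16 that act in S phase or its onset and 24 that act in mitosis. They were taken by symbol from a list of names, and all 40 were found among the 55401 genes of the deposited count table. The 40 also passed the filter on low counts, which left 22318 genes for testing. Bulk polyA RNA was sequenced from 6 primary Schwann cell cultures, 3 labelled WT and 3 labelled PB1 -/- (PB1_KO below), derived from the ganglia (dorsal root) of adult mice. The knockout is a constitutive targeted allele of *Plxnb1*, *Plxnb1tm1Matl*, in which a transmembrane-lacZ-neo gene trap interrupts the gene, on a C57BL/6 background. Both genotypes were grown in a medium with forskolin and neuregulin, which are Schwann cell mitogens, and serum, and were depleted of fibroblasts with an antibody against Thy1. The labels do not give the sex of the mice, the passage of each culture, or whether each culture came from a separate animal, so the p-values below measure only the spread between these samples. The WT libraries held 63883476, 59252048 and 70967747 counts in replicates 1, 2 and 3, and the PB1_KO libraries held 77280964, 72461964 and 69385956. Levels are given as CPM, the read counts scaled for library size by edgeR with TMM factors, and 3 counts in a library, taken as the detection limit, correspond to 0.0383 to 0.0512 CPM, a limit that covers counting error only.

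Before a cell divides it licenses its replication origins, copies its DNA in S phase, and then condenses, aligns and separates the chromosomes in mitosis. E2F factors drive the genes of the G1/S transition and S phase, while the DREAM complex and later B-Myb and FoxM1 control many mitosis genes through CHR elements, often beside CCAAT boxes, so that the transcripts of each group tend to peak in their own phase. Schwann cells leave the cycle as they mature and enter it again after nerve injury or in culture with neuregulin and forskolin.

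*Plxnb1*, which encodes the receptor Plexin-B1, was at 61.7, 45.4 and 96.4 CPM in WT replicates 1, 2 and 3 and at 13.1, 16.6 and 18.5 CPM in PB1_KO replicates 1, 2 and 3. Every PB1_KO culture lay below every WT culture, and the log2 fold change of PB1_KO over WT was -2.08 (SE 0.25, edgeR adjusted p 0.0449). The edgeR call on *Plxnb1* was lost without WT replicate 1 (adjusted p 0.0812) and without PB1_KO replicates 1 (0.246), 2 (0.254) or 3 (0.12), while DESeq2 called it with each library left out in turn. With all libraries the call was also lost with edgeR's filterByExpr (log2 fold change -2.08, adjusted p 0.0715) and with limma on FPKM (-1.86, 0.413). Its locus overlaps *Gm7628* on the opposite strand.

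Markers of Schwann cells were present in every culture. *Sox10*, the factor that specifies the lineage, was at 503, 432 and 524 CPM in WT replicates 1, 2 and 3 and at 507, 564 and 579.8 CPM in PB1_KO replicates 1, 2 and 3. *S100b*, a common protein marker of the cells, was at 7.09 to 8.22 CPM. The summed level of 6 Schwann cell markers, of which *Sox10* was the most abundant, was 1515, 1268 and 1523 CPM in WT and 1564, 1709.8 and 1743 CPM in PB1_KO. Other genes of that list had been left out after the results were known. The sum with them is not given, so the values here hold for the trimmed list only. This sum was lowest in WT replicate 2 and did not overlap between the genotypes, whereas *Sox10* did overlap, *S100b* was highest in WT replicate 2, and 2 of the 6 markers had every PB1_KO culture above every WT culture, as had 9.3% of all tested genes.

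Genes listed as markers of other cells were detected too, and whether Schwann cells themselves carried these transcripts was not tested. Summed over 8 fibroblast markers, led by *Col1a1*, the level was 11969.6, 14432 and 12306 CPM in WT and 10862, 11347 and 10968 CPM in PB1_KO, and *Thy1* itself, the target of the depletion, was at 429, 652 and 489.8 CPM against 409.6, 409 and 384 CPM. WT replicate 2 was the highest culture for both, and every PB1_KO culture lay below every WT culture. The collagen I genes *Col1a1* and *Col1a2* made up 92.3% to 93.6% of the fibroblast sum, and without them it was 767, 1109 and 887 CPM in WT and 789, 781 and 781 CPM in PB1_KO, with overlap between the genotypes. The 5 mural cell markers, led by *Acta2*, summed to 1855, 2480 and 2056 CPM in WT and 1806, 1801 and 1674 CPM in PB1_KO. Macrophage markers (8, led by *Csf1r*) summed to 35.3, 34.4 and 31.2 CPM in WT and 41.9, 41.9 and 36.3 CPM in PB1_KO. Neuron markers (8, led by *Tubb3*) summed to 164, 153 and 167 CPM in WT and 169, 176 and 194 CPM in PB1_KO, and satellite glia markers (4, led by *Kcnj10*) to 1018, 929 and 1058 CPM in WT and 1088, 1155 and 1141 CPM in PB1_KO. For each of these 3 lists the sum in every PB1_KO culture lay above that in every WT culture, whereas endothelial markers (5, led by *Cdh5*) overlapped at 63.7, 83.1 and 73.3 CPM in WT and 74.0, 68.0 and 67.8 CPM in PB1_KO. None of these markers was at 0 in every culture. All 8 macrophage, all 8 neuron and all 4 satellite glia markers had log2 fold changes above 0, where 51.5% of all tested genes did, with medians of 0.26, 0.36 and 0.11, and 2 of 5 endothelial and 2 of 5 mural cell markers did, with medians of -0.06 and -0.13. Without WT replicate 2 the endothelial median was 0.03 with 3 of 5 above 0, the mural cell median -0.07 with 1 of 5, and the satellite glia median 0.06 with 3 of 4.

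The libraries also differed in transcripts of the sex chromosomes. *Xist*, which is transcribed from the inactive X chromosome, was at 241, 218 and 226 CPM in WT and at 260.0, 237 and 11.6 CPM in PB1_KO replicates 1, 2 and 3. The Y-linked gene *Ddx3y* had 0 counts in each WT library and 210, 259 and 5382 counts in PB1_KO replicates 1, 2 and 3. *Eif2s3y*, *Kdm5d* and *Uty* likewise had 0 counts in each WT library. They had 47 to 125 counts in PB1_KO replicates 1 and 2, and 1006 to 2368 counts in PB1_KO replicate 3. PB1_KO replicate 3 thus stood apart from the other 5 libraries in low *Xist* and high Y-linked transcripts, and values without it are given below. Reads of these Y-linked genes were in every PB1_KO library and in no WT library, so leaving out replicate 3 does not remove that difference.

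Across the 40 genes the fold changes were small and 37 of them were above 0, but none of the 40 passed the edgeR test, whose limits were 0.05 for the adjusted p and 0.25 for the size of the log2 fold change. That test called 8 genes of 22318, or 0.0358%, and 25 without WT replicate 2, 5 without PB1_KO replicate 1 and 4 without PB1_KO replicate 2 or 3. Beside the 0 called by edgeR, 5 members were higher in PB1_KO at an unadjusted p below 0.05, where 6.95% of all tested genes were, and 0 were lower, where 6.78% were. DESeq2 called 1 member, *E2f2*, and 335 of the 15393 genes to which it gave an adjusted p, or 2.18%. Without WT replicate 1 DESeq2 called 946 of 14343 genes, or 6.6%, and among them 16 of the 24 mitosis members, all higher in PB1_KO, and 1 S-phase member. Without any one of the other libraries DESeq2 called 51 (PB1_KO replicate 3) to 290.0 (PB1_KO replicate 1) genes, with 128 without PB1_KO replicate 2, 164 without WT replicate 2, 224 without WT replicate 3, and 0 of the 40 members. These DESeq2 fits were chosen after seeing the data, and edgeR called 0 of the 40 members with each library left out. A single member, again *E2f2*, had every PB1_KO culture above every WT culture, as had 9.3% of all tested genes, and none had every PB1_KO culture below, as had 10.4%. Over all tested genes 51.5% had a log2 fold change above 0.

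The S-phase and mitosis members had different medians. The median log2 fold change was 0.05 for the 16 S-phase members, with 13 above 0 and 3 below, and 0.17 for the 24 mitosis members, with all 24 above 0. Over all tested genes it was 0.0050. The difference between the lists was not tested. Leaving out WT replicate 2 brought the mitosis median to 0.09 with all 24 still above 0, leaving out WT replicate 1 brought it to 0.28, and leaving out both WT replicate 2 and PB1_KO replicate 3, an alternative chosen after seeing the data, brought it to 0.04 with 17 above 0. For the S-phase members the median was 0.0012 with 8 above 0 without WT replicate 3, 0.0046 without PB1_KO replicate 3, 0.03 without WT replicate 2, 0.08 without PB1_KO replicate 2, 0.10 without WT replicate 1 and -0.0033 without both WT replicate 2 and PB1_KO replicate 3. In bulk RNA a change in the number of cells in a phase and a change in RNA per cell cannot be told apart.

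**Figure D1:**
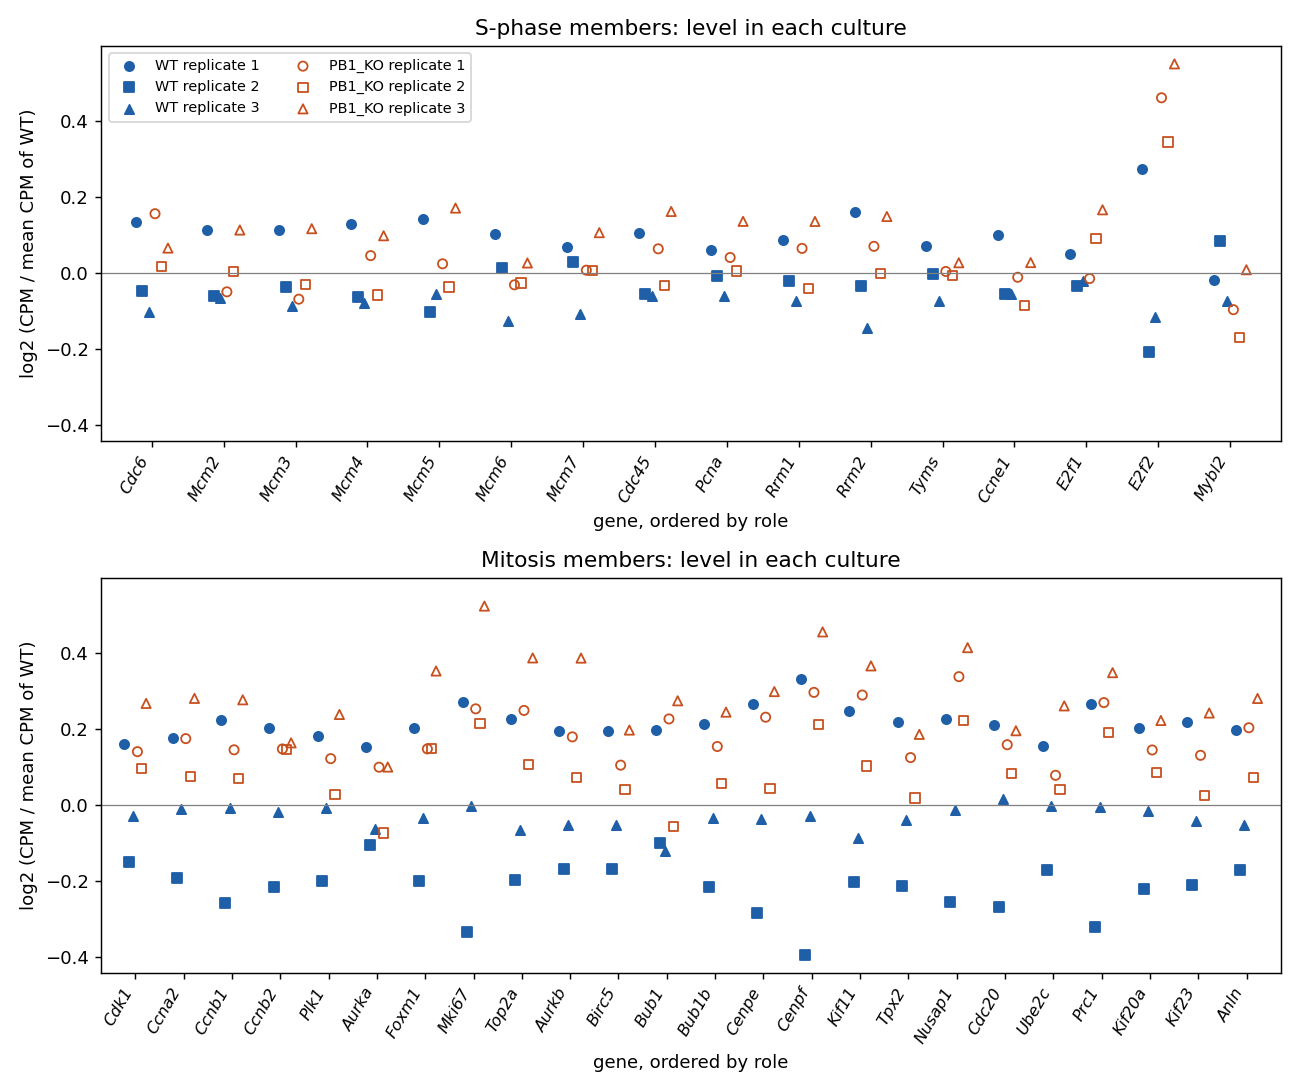
Level of each member in each of the 6 cultures as the log2 ratio of its CPM to the mean CPM of the 3 WT cultures, S-phase members in the upper panel and mitosis members in the lower, with filled blue symbols for WT, open orange symbols for PB1_KO and one shape per replicate number. WT replicate 2 (filled squares) is the lowest culture for 23 of 24 mitosis members and PB1_KO replicate 3 (open triangles) the highest for 20.

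Genes of origin licensing and the replicative helicase lay close together in all cultures. *Cdc6*, which loads the helicase at origins, was at 16.1, 14.2 and 13.6 CPM in WT replicates 1, 2 and 3 and at 16.3, 14.8 and 15.3 CPM in PB1_KO replicates 1, 2 and 3. *Mcm2*, a helicase subunit, was at 83.6, 74.1 and 73.9 CPM in WT and at 74.6, 77.5 and 83.5 CPM in PB1_KO. WT replicate 1 and PB1_KO replicate 1 were the highest cultures for *Cdc6*, WT replicate 1 and PB1_KO replicate 3 for *Mcm2*, and the genotypes overlapped for both. Their log2 fold changes were 0.08 (SE 0.08, adjusted p 0.669) and 0.02 (SE 0.06, adjusted p 0.897), and that of *Mcm2* was below 0 without WT replicate 3 (-0.0055) or without PB1_KO replicate 3 (-0.02). That of *Cdc6* was 0.03 without WT replicate 3, 0.04 without PB1_KO replicate 1 and 0.16 without WT replicate 1. The other subunits *Mcm3* to *Mcm7* had log2 fold changes from -0.0090 (*Mcm6*) to 0.06 (*Mcm5*), and *Cdc45*, which joins the helicase when it fires, had 0.07. The 8 genes of this role had a median of 0.04, and 0.0087 without WT replicate 2, with *Mcm2* at 0.00038, *Mcm3* at -0.0048, *Mcm4* at 0.0049, *Mcm5* at 0.01 and *Mcm6* at 0.0018.

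At the replication fork, *Pcna*, the sliding clamp, was at 125, 119 and 115 CPM in WT replicates 1, 2 and 3 and at 123, 120.2 and 132 CPM in PB1_KO. PB1_KO replicate 3 was highest and WT replicate 3 lowest, and the genotypes overlapped. The log2 fold change was 0.06 (SE 0.05, adjusted p 0.612), and it was 0.02 without PB1_KO replicate 3, 0.03 without WT replicate 3 and 0.10 without WT replicate 1. The genes that supply deoxynucleotides, *Rrm1* and *Rrm2* of ribonucleotide reductase and *Tyms*, the thymidylate synthase, had log2 fold changes of 0.06, 0.07 and 0.0094. *Rrm2*, the subunit whose level follows S phase, was at 117, 103 and 95.0 CPM in WT and at 110.3, 105 and 116 CPM in PB1_KO, with WT replicate 1 above every other culture.

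Regulators of the G1/S transition included the one member with genotypes that did not overlap. *E2f2*, an activator of S-phase genes, was at 6.25, 4.48 and 4.77 CPM in WT replicates 1, 2 and 3 and at 7.12, 6.57 and 7.57 CPM in PB1_KO replicates 1, 2 and 3. Its highest WT culture, replicate 1, lay just below its lowest PB1_KO culture, replicate 2. The log2 fold change was 0.45 (SE 0.13), with an edgeR adjusted p of 0.273 and a DESeq2 adjusted p of 0.04997. The DESeq2 call was lost without WT replicate 2 (adjusted p 0.312), WT replicate 3 (0.229), PB1_KO replicate 1 (0.168), PB1_KO replicate 2 (0.139) or PB1_KO replicate 3 (0.508), and kept without WT replicate 1 (0.000523), each an alternative chosen after seeing the data. *E2f1*, a second activator, was at 44.6, 42.1 and 42.4 CPM in WT and at 42.6, 45.8 and 48.3 CPM in PB1_KO. PB1_KO replicate 3 was highest and the genotypes overlapped, with a log2 fold change of 0.08 (SE 0.06, adjusted p 0.536), 0.04 without PB1_KO replicate 3 and 0.13 without PB1_KO replicate 1. *Ccne1*, which encodes cyclin E1, the partner of Cdk2 at S-phase entry, had -0.02, and *Mybl2*, which encodes B-Myb, had -0.08, and these were -0.04 and -0.03 without WT replicate 2.

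Mitosis members were ordered alike across the cultures. WT replicate 2 was the lowest culture for 23 of the 24 members, where 27.0% of all tested genes had their lowest value in that culture, and the exception was *Bub1*, lowest in WT replicate 3. PB1_KO replicate 3 was the highest for 20, where 20.4% of all tested genes were highest in it, and WT replicate 1 for the other 4. Over all tested genes WT replicate 2 was most often the lowest culture and also most often the highest, at 25.1%. It thus stood apart in many genes beside these members. WT replicate 2 lay below every PB1_KO culture for 24 members and WT replicate 3 for 23, the exception being *Aurka*, where 34.2% and 26.7% of all tested genes did so. WT replicate 1, in contrast, lay above PB1_KO replicate 2 for all 24, above PB1_KO replicate 1 for 18 and above the PB1_KO mean for 15, where 49.7%, 49.98% and 48.3% of all tested genes did, so the genotypes overlapped for every one of the 24. Without this WT culture DESeq2 called 16 of the 24 higher, from *Nusap1* (log2 fold change 0.46, adjusted p 0.000327) and *Cenpf* (0.52, 0.000435) to *Ccnb1* (0.29, 0.037), with *Mki67* at 0.50 (0.00153) and *Top2a* at 0.38 (0.00192), and edgeR called 0, with an adjusted p of 0.127 for *Mki67*.

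Among genes of mitotic entry, *Cdk1*, the kinase that starts mitosis, was at 119, 96.3 and 105 CPM in WT replicates 1, 2 and 3 and at 118, 114 and 129 CPM in PB1_KO replicates 1, 2 and 3. *Ccnb1*, its cyclin B1 partner, was at 90.2, 64.5 and 76.7 CPM in WT and at 85.3, 81.0 and 93.5 CPM in PB1_KO. PB1_KO replicate 3 was highest, WT replicate 2 lowest and WT replicate 1 within the PB1_KO range for both. Their log2 fold changes were 0.17 (SE 0.08, adjusted p 0.379) and 0.17 (SE 0.11, adjusted p 0.523), and that of *Ccnb1* was -0.0029 without both WT replicate 2 and PB1_KO replicate 3. Without WT replicate 1 those of *Cdk1* and *Ccnb1* were 0.26 and 0.30, and without PB1_KO replicate 3 they were 0.12 and 0.11. *Foxm1*, the transcription factor for late-cycle genes, was at 125, 94.4 and 106 CPM in WT and at 120.2, 120.3 and 139 CPM in PB1_KO, with a log2 fold change of 0.22. The cyclin genes *Ccna2* and *Ccnb2* had 0.18 and 0.15, and *Plk1* and *Aurka*, mitotic kinases, had 0.13 and 0.04. *Aurka* had the smallest fold change of the 24 members, and the 7 genes of this role had a median of 0.17. Without WT replicate 2 that median was 0.06, with *Cdk1* at 0.10, *Ccna2* at 0.10, *Ccnb1* and *Ccnb2* at 0.06, *Plk1* at 0.05, *Foxm1* at 0.13 and *Aurka* at 0.00019.

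With all libraries *Mki67* had the largest fold change of the mitosis members. This gene encodes the chromosome-coating protein Ki-67, used to mark cycling cells. It was at 373, 245 and 308 CPM in WT replicates 1, 2 and 3 and at 368, 358 and 444 CPM in PB1_KO replicates 1, 2 and 3. WT replicate 1 lay above PB1_KO replicates 1 and 2, and WT replicate 2 was the lowest culture. The log2 fold change of *Mki67* was 0.34 (SE 0.14, p 0.038, adjusted p 0.342), and it was 0.20 without WT replicate 2 and 0.50 without WT replicate 1. Without WT replicate 2 *Nusap1* was larger, at 0.22, as it was without PB1_KO replicate 3, at 0.28 against 0.24 for *Mki67*. Without WT replicate 1 *Cenpf* was larger, at 0.53. *Top2a*, the topoisomerase that untangles chromosomes, was at 359, 267 and 293 CPM in WT and at 364, 330.2 and 401 CPM in PB1_KO. WT replicate 1 again lay within the PB1_KO range, with the other WT cultures below it, and the log2 fold change was 0.25 (SE 0.11, adjusted p 0.35). *Aurkb* and *Birc5*, of the chromosomal passenger complex, had log2 fold changes of 0.22 and 0.12. *Top2a* was at 0.17, *Aurkb* at 0.15 and *Birc5* at 0.04 without WT replicate 2.

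At the kinetochore, *Cenpf*, a protein of its outer corona, was at 119.6, 72.3 and 93.1 CPM in WT replicates 1, 2 and 3 and at 117, 110.1 and 130.4 CPM in PB1_KO replicates 1, 2 and 3. WT replicate 1 exceeded PB1_KO replicates 1 and 2, and the genotypes overlapped. The log2 fold change was 0.33 (SE 0.15, adjusted p 0.382), and 0.17 without WT replicate 2. *Cenpe*, the kinetochore kinesin, had 0.20, and the checkpoint kinase gene *Bub1* and its relative *Bub1b* had 0.16 and 0.15. Without WT replicate 2 *Cenpe* was at 0.08 and *Bub1b* at 0.06, and the median of this role went from 0.18 to 0.10.

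Spindle genes had the highest median of the roles, 0.26 over 3 genes. *Nusap1*, which bundles spindle microtubules, was at 55.9, 39.99 and 47.3 CPM in WT replicates 1, 2 and 3 and at 60.4, 55.8 and 63.6 CPM in PB1_KO replicates 1, 2 and 3. *Kif11*, the kinesin that separates the spindle poles, was at 96.0, 70.2 and 76.1 CPM in WT and at 98.8, 86.7 and 104 CPM in PB1_KO. PB1_KO replicate 3 was highest for both, and WT replicate 1 lay above PB1_KO replicate 2 in each case, for *Nusap1* by a small margin. The log2 fold change of *Nusap1* was 0.33 (SE 0.11, p 0.0134), with an edgeR adjusted p of 0.293, the lowest of the 24, and a DESeq2 adjusted p of 0.0826, also the lowest. *Kif11* had 0.26 (SE 0.11, adjusted p 0.356), and *Tpx2*, which builds microtubules near chromatin, had 0.11. The role's median was 0.17 without WT replicate 2, with *Kif11* at 0.17 and *Tpx2* at 0.02.

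For the end of mitosis, *Cdc20*, which activates the anaphase-promoting complex, was at 121, 86.7 and 106 CPM in WT replicates 1, 2 and 3 and at 117, 111 and 119.6 CPM in PB1_KO replicates 1, 2 and 3. WT replicate 1 was the highest culture of all 6. The log2 fold change was 0.15 (SE 0.10, adjusted p 0.55), and *Ube2c*, the ubiquitin-conjugating enzyme of that complex, had 0.13. Of the cytokinesis genes, *Prc1*, which bundles the microtubules of the central spindle, was at 201, 134 and 167 CPM in WT and at 202, 191 and 213 CPM in PB1_KO. WT replicate 1 equalled PB1_KO replicate 1 within 1 CPM, and the log2 fold change was 0.27 (SE 0.12, adjusted p 0.37). *Kif20a* and *Kif23*, kinesins of the central spindle, and *Anln*, which encodes the contractile ring protein anillin, had 0.15, 0.14 and 0.19. Without WT replicate 2 the log2 fold change was 0.03 for *Cdc20*, 0.06 for *Ube2c*, 0.14 for *Prc1*, 0.06 for *Kif20a*, 0.05 for *Kif23* and 0.11 for *Anln*.

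**Figure D2:**
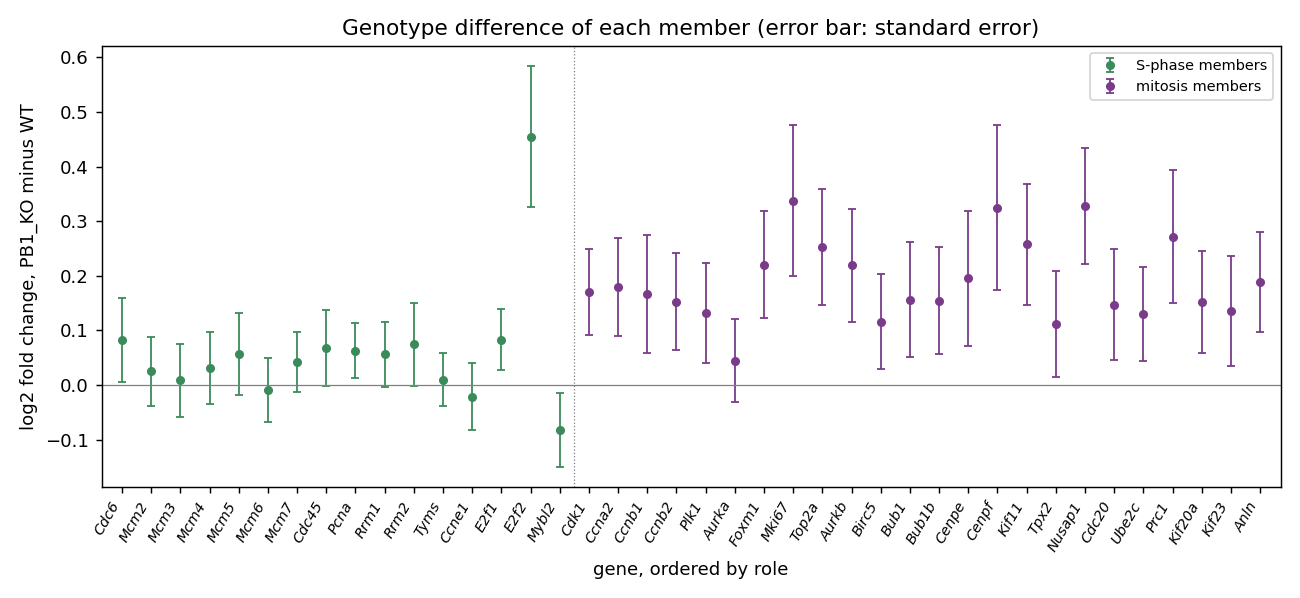
Log2 fold change of PB1_KO over WT for each of the 40 members from edgeR on the counts, with its standard error as the bar, S-phase members in green on the left and mitosis members in purple on the right. The mitosis members lie between 0.04 and 0.34, and the S-phase members between -0.08 and 0.08 apart from *E2f2* at 0.45.

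Spread between cultures of one genotype was larger for the mitosis members than for most genes in WT. The median standard deviation of log2 CPM over the 3 WT cultures was 0.21 for the mitosis members, 0.10 for the S-phase members and 0.12 for all tested genes. Over the 3 PB1_KO cultures it was 0.10, 0.08 and 0.10. Summed over the 24 mitosis members the level was 2955, 2154 and 2478 CPM in WT (mean 2529 ± 403, SD, n = 3) and 2905, 2723 and 3169 CPM in PB1_KO (mean 2932 ± 224, SD, n = 3). The S-phase sum was 1202, 1103 and 1059 CPM in WT and 1139, 1109 and 1215 CPM in PB1_KO. WT replicate 1 lay within the PB1_KO range for both sums, and the ratio of the mitosis sum to the S-phase sum was 2.46, 1.95 and 2.34 in WT and 2.55, 2.46 and 2.61 in PB1_KO, lowest in WT replicate 2.

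WT replicate 2, the culture with the lowest mitosis sum, also had the lowest sum over the trimmed Schwann cell list. Its sums of fibroblast and mural cell markers were the highest, and the values are given above. The 6 Schwann cell markers left in the trimmed list were above 0 in log2 fold change (51.5% of all tested genes), with a median of 0.19. Of them 5 had an unadjusted p below 0.05 (6.95%) and 0 were called by edgeR or DESeq2 with all libraries. These values hold for the trimmed list only, and those for the full list are not given. DESeq2 without WT replicate 1, where it called 6.6% of genes, called 2 Schwann cell, 1 macrophage and 1 satellite glia marker higher and 3 fibroblast and 2 mural cell markers lower, and without PB1_KO replicate 1 it called 1 Schwann cell marker higher. Of the 8 fibroblast markers 7 were below 0, with a median of -0.22, 4 lower at an unadjusted p below 0.05 (6.78% of all tested genes) and 0 called by edgeR, and without WT replicate 2 the median was -0.11 with 3 above 0. DESeq2 called *Col1a1* lower (adjusted p 0.0263) among them and *Acta2* (0.0174) among the mural cell markers, and of the satellite glia markers *Apoe* higher (0.0164). With no filter on low counts, where 296 genes were called in all, edgeR called these 3 too (adjusted p 0.0383, 0.0327 and 0.0303). Without PB1_KO replicate 3 DESeq2 called none of the 3 (adjusted p 0.362, 0.348 and 0.349), with log2 fold changes of -0.28, -0.37 and 0.27 against -0.30, -0.42 and 0.30 with it, and *Col1a1* was also lost without PB1_KO replicates 1 (0.107) or 2 (0.118) and, by its log2 fold change of -0.19, without WT replicate 2. *Acta2* was lost without WT replicate 3 (0.0538) or PB1_KO replicate 2 (0.112) and was at -0.26, still called, without WT replicate 2, and *Apoe* without PB1_KO replicate 2 (0.21). The part of such markers and of the cells behind them in the levels of the mitosis members was not tested. PB1_KO replicate 3, the culture with the highest mitosis sum, was the one with low *Xist* and high Y-linked transcripts, and without it the mitosis median was 0.12 with all 24 above 0. The part of sex in these levels was not tested, and without that culture Y-linked reads were still in PB1_KO libraries only.

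**Figure D3:**
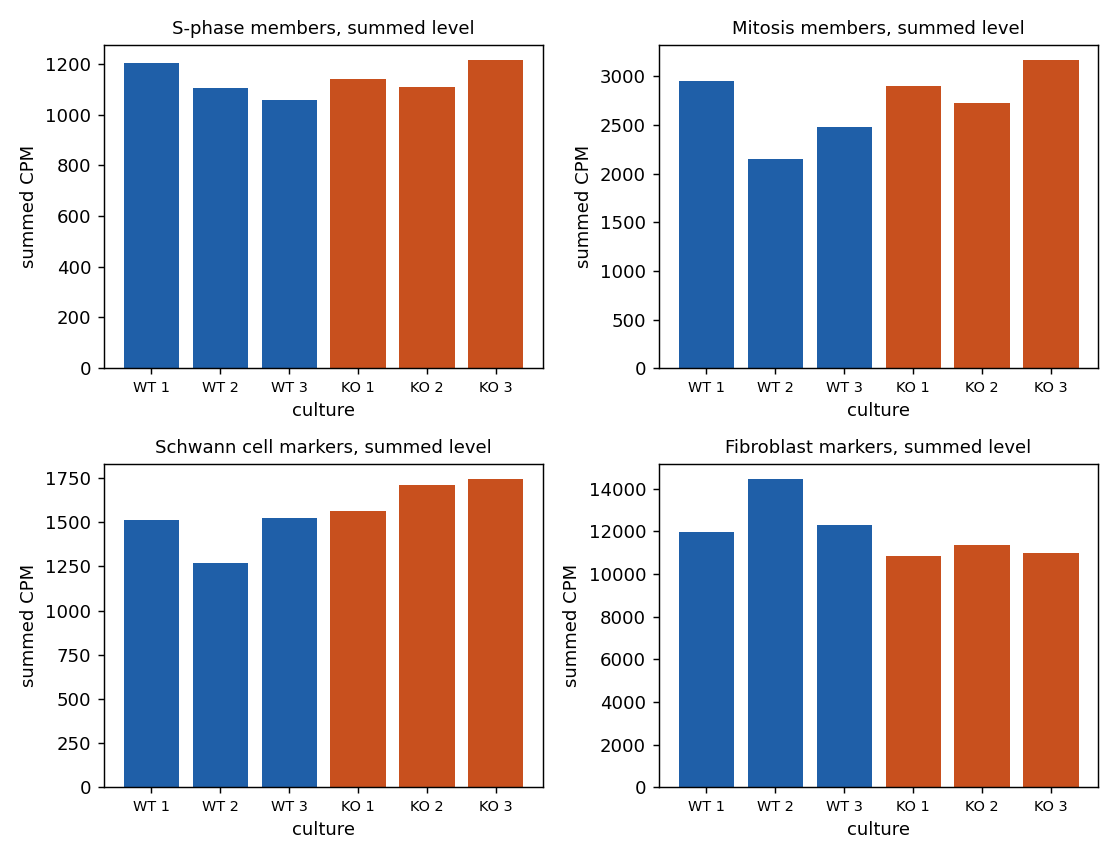
Summed CPM in each culture for the S-phase members (16), mitosis members (24), Schwann cell markers (trimmed list of 6) and fibroblast markers (8). WT is in blue and PB1_KO in orange. In WT replicate 2 the mitosis sum (2154 CPM) and the Schwann cell sum (1268 CPM) are the lowest of the 6 cultures and the fibroblast sum (14432 CPM) is the highest.

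Per kilobase of exon, a scale that allows for the length of each gene's exons, the members covered a wide range in WT. *Cdc20* had the highest mean at 55.9 CPM per kb, then *Pcna* at 49.9, *Plk1* at 39.7, *Rrm2* at 37.9 and *Ccnb2* at 35.3. Both *Cdc20* and *Plk1* overlap a gene on the opposite strand, so their places in this order are uncertain. The lowest were *E2f2* at 1.06 CPM per kb, *Cdc6* at 2.79, *Mybl2* at 4.39 and *Cenpf* at 6.16.

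Other genes of the cycle, in lists not used to choose the members, gave 0 calls by edgeR and 0 by DESeq2 in each of 6 lists with all libraries. These lists were also written with earlier results known. Their genes were measured in the same cultures as the members and are not independent of them. Without WT replicate 1 DESeq2 called 33 of the other mitosis genes, all higher, 5 of the other replication genes, 4 of them higher, 3 CDK inhibitors and pocket proteins, and 1 gene in each of the other 3 lists, where it called 6.6% of all genes. It called 1 other replication gene without WT replicate 3, where it called 224 genes in all. Without PB1_KO replicate 2 it called 1 other mitosis gene, and 128 genes in all. Of 48 other mitosis genes all 48 were above 0 (51.5% of all tested genes), with a median log2 fold change of 0.20, 14 higher at an unadjusted p below 0.05 (6.95%) and 2 with every PB1_KO culture above every WT culture (9.3%), and without WT replicate 2 the median was 0.12 with 46 above 0. The highest were *Aspm*, a spindle pole gene, at 0.37 and *Depdc1a* at 0.36, and the lowest were *Spc24*, of the kinetochore, at 0.08 and *Trip13*, a checkpoint ATPase, at 0.01. *Aspm* was at 0.22, *Spc24* at -0.0072 and *Trip13* at -0.0036 without WT replicate 2. Of 38 other replication genes 28 were above 0, with a median of 0.04, or 0.02 without WT replicate 2, and 2 were higher and 1 lower at an unadjusted p below 0.05, or no larger a share than the 6.95% and 6.78% of all tested genes. *Cdc7*, the kinase that fires origins, was highest at 0.30 and *Tk1*, thymidine kinase, next at 0.20. The lowest was *Dut*, the dUTPase, at 47.6, 57.5 and 42.1 CPM in WT and 39.9, 39.0 and 38.6 CPM in PB1_KO, followed by *Slbp*, the histone mRNA binding protein, at -0.08. *Dut* had every PB1_KO culture below every WT culture, and its log2 fold change was -0.32 (SE 0.10, adjusted p 0.285). Without WT replicate 2 it was -0.19, that of *Tk1* 0.13 and that of *Slbp* -0.04.

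Genes that act in G1 lay on both sides of 0. Of 10 G1 cyclins, kinases and activators 6 were above 0 with a median of 0.02, 2 were lower at an unadjusted p below 0.05 (6.78% of all tested genes), and 3 had every PB1_KO culture below every WT culture (10.4%). *Ccnd1*, which encodes the mitogen-responsive cyclin D1, was at 632, 473 and 591 CPM in WT replicates 1, 2 and 3 and at 609, 653 and 699 CPM in PB1_KO replicates 1, 2 and 3. *Ccnd2*, for cyclin D2, was at 239, 275 and 261 CPM in WT and at 238, 227 and 218 CPM in PB1_KO. WT replicate 2 was thus the lowest culture for *Ccnd1* and the highest for *Ccnd2*, with log2 fold changes of 0.21 (SE 0.10, adjusted p 0.385) and -0.18 (SE 0.06, adjusted p 0.29), and *Ccnd1* was at 0.10 without WT replicate 2. *Ccne2* had 0.11 and *Myc* -0.14. *Cdc25a*, a phosphatase that activates Cdk2, had 0.02, and lies 0.78 Mb from *Plxnb1*.

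CDK inhibitors and pocket proteins, which hold cells in G1, were for the most part above 0. Among 10 genes 7 were above 0 (51.5% of all tested genes) with a median of 0.17, all 7 at an unadjusted p below 0.05 (6.95%), and 4 had every PB1_KO culture above every WT culture (9.3%). *Cdkn1b*, which encodes p27, was at 69.8, 61.5 and 68.0 CPM in WT replicates 1, 2 and 3 and at 73.8, 71.8 and 79.8 CPM in PB1_KO replicates 1, 2 and 3. The genotypes did not overlap, and the log2 fold change was 0.18 (SE 0.06, adjusted p 0.295). *Cdkn1a*, which encodes p21, was at 148, 158 and 171 CPM in WT and at 162, 156 and 152 CPM in PB1_KO, with full overlap and a log2 fold change of -0.02. The highest of the list were *Cdkn1c* at 0.84, at levels of 0.29 to 0.772 CPM, and *Cdkn2c* at 0.28, and the lowest were *Cdkn2a* at -0.19 and *Cdkn2b* at -0.14. Leaving out WT replicate 2 gave 0.18 for *Cdkn2c*, -0.12 for *Cdkn2a* and -0.08 for *Cdkn2b*.

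Further E2F and DREAM genes numbered 13, of which 11 were above 0 (51.5% of all tested genes) with a median of 0.06 and 1 was higher at an unadjusted p below 0.05 (6.95%). *E2f8* and *E2f7*, repressors among the E2F factors, had 0.17 and 0.17, *E2f8* with 0.07 without WT replicate 2, and *Lin37* and *E2f4*, which act in the repressive complex, had -0.05 and -0.05. Among p53 and its targets, 15 genes, 5 were above 0 and 10 below, with a median of -0.03, or -0.04 without WT replicate 2, and 2 lower at an unadjusted p below 0.05 (6.78% of all tested genes). *Trp53inp1* and *Ei24* were highest at 0.09 and 0.06, and *Pmaip1* and *Gadd45a* lowest at -0.35 and -0.26. Leaving out WT replicate 2 gave -0.12 for *Pmaip1*, -0.17 for *Gadd45a* and 0.02 for *Ei24*.

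The promoters of the members were searched for sequence words, which the choice of members did not use. A RefSeq promoter (build GRCm38.p6) was at hand for 34 of the 40 members and for 27025 genes in all. The 250 bases before the most upstream start of each gene among these promoters were searched on both strands. For *Cdc6* and *E2f1* that window lay wholly or partly inside the gene as placed by GENCODE M21. Bases before their GENCODE starts were thus left out, and the E2F word counted for *Cdc6* lies within the gene. The E2F words TTTCCCGC, TTTCGCGC, TTTGCCGC and TTTGGCGC were in 4 of 15 S-phase promoters (26.7%), 1 of 19 mitosis promoters (5.26%) and 1.92% of all. The CHR word TTTGAA was in 7 of 19 mitosis promoters (36.8%), 2 of 15 S-phase promoters (13.3%) and 16.3% of all. CCAAT was in 16 of 19 mitosis promoters (84.2%), 10 of 15 S-phase promoters (66.7%) and 34.5% of all, and it was there at least 2 times in 10 mitosis promoters (52.6%), 5 S-phase promoters (33.3%) and 10.5% of all. Both TTTGAA and CCAAT were in 7 of 19 mitosis promoters (36.8%), 2 of 15 S-phase promoters (13.3%) and 5.76% of all. Words that lie past the end of the window, or run across it, were not counted, so the shares hold for this window only. A match is a string of letters and was not tested as a binding site. *Nusap1*, with the lowest adjusted p of the mitosis members, had none of the 3 kinds of word in this window.

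These 5 promoters are printed to show these words in place, 5' to 3' on the strand of the gene, with capitals marking every E2F, TTTGAA and CCAAT word on either strand. *Mki67* (chr7:135716380-135716629 on the minus strand) and *Top2a* (chr11:99024190-99024439 on the minus strand) are shown as mitosis promoters with 2 TTTGAA words each and with 3 and 6 CCAAT words, and *Cdk1* (chr10:69352913-69353162 on the minus strand) as the one mitosis promoter with all 3 kinds. *Mcm6* (chr1:128359706-128359955 on the minus strand) is shown as the S-phase promoter with the most E2F words, of which a pair overlap in one run of capitals. *E2f2* (chr4:136172024-136172273 on the plus strand) is the member whose genotypes did not overlap.
Mki67: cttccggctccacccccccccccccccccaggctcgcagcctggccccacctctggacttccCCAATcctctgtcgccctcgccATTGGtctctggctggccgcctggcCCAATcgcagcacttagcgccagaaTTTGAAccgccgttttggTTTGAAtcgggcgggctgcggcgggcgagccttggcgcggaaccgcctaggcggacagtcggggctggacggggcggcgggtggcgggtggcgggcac
Top2a: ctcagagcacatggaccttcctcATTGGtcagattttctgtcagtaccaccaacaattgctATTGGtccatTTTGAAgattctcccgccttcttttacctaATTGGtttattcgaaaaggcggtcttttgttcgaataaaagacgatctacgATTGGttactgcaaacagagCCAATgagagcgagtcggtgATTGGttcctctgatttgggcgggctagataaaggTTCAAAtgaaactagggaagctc
Cdk1: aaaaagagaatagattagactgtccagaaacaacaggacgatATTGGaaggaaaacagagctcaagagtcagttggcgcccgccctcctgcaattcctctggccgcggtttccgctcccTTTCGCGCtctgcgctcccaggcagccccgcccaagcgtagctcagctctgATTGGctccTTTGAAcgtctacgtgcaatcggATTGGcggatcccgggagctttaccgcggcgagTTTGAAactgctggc
Mcm6: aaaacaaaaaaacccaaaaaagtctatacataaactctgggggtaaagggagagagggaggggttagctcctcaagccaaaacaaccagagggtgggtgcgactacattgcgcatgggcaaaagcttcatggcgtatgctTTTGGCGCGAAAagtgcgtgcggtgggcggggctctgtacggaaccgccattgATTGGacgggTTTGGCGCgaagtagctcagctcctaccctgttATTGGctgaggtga
E2f2: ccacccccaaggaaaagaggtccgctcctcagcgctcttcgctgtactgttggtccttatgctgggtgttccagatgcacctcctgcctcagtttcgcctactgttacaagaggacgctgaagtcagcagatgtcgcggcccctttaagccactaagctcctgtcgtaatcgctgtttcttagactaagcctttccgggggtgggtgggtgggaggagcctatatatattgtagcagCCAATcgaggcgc

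Some counts may hold reads of other genes. Of the 40 members 9 overlap a gene on the opposite strand and 3 one on the same strand, and the strand setting used for counting is not stated, so the levels of these members are uncertain. Partners with more reads than the member were *Ufd1* beside *Cdc45*, at 272% of its mean CPM, *Elovl1* beside *Cdc20*, at 136%, and *Cops6* beside *Mcm7*, at 117%, with log2 fold changes of 0.02, 0.05 and -0.02. *Oip5*, beside *Nusap1*, was at 11.6% of its level, with a log2 fold change of 0.28. Pseudogenes with at least 90% identity exist for 16 members, 23 in all, and the largest share was 1.62% of the level of the member, for *Ube2c*.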

How the data were processed

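The authors trimmed the reads with Trim Galore 0.6.5, aligned them to mm10 with Bowtie2 2.4.1, which does not span introns, removed duplicates with SAMtools 1.10 and made the deposited counts with featureCounts on GENCODE vM25 genes. The authors also deposited FPKM values, whose length term was within 1% of the gene span for 99.5% of 13619 genes checked. All genes that had 2 or more counts in 5 or more libraries were fitted together with edgeR 4.0.16 (quasi-likelihood, TMM, genotype only, two-sided) in R 4.3.3, with Benjamini-Hochberg over 22318 genes. Calls used an adjusted p limit of 0.05 and a limit of 0.25 on the size of the log2 fold change. Symbols came from GENCODE M21, which matched 55141 of 55401 IDs. Alternatives were DESeq2 1.42.0, limma 3.58.1 on log2(FPKM + 0.1), DESeq2's size factors, upper-quartile factors, no filter, filterByExpr, no limit on the fold change, a replicate block, and leaving out each library. DESeq2 without each library, and edgeR without WT replicate 2 and PB1_KO replicate 3, were chosen after seeing the data. The counts of members above 0 were not planned for any alternative. Tables used Python 3.11.15 and pandas 2.3.3.

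The members and lists were chosen with earlier results of these data known. Lists were the S-phase and mitosis members, other replication genes, other mitosis genes, G1 cyclins, kinases and activators, CDK inhibitors and pocket proteins, other E2F and DREAM genes, p53 and its targets, and markers of Schwann cells, fibroblasts, macrophages, neurons, satellite glia, endothelium, mural cells and the sex chromosomes. The Schwann cell list was used without 2 of its genes, left out after the results were known. Named genes were *Plxnb1*, the members, with values in every culture for *Mki67*, *Top2a*, *Cdk1*, *Ccnb1*, *Pcna*, *Mcm2* and the 3 of each list with the largest absolute fold change, and from each other list the genes called by either tool, the 2 highest and 2 lowest fold changes, and *Ccnd1*, *Cdkn1a*, *Cdkn1b*, *Cdkn2a* and *Cdc25a*. The rule was not carried out for the cell markers, of which those called, the most abundant of each list, *S100b*, *Thy1*, *Col1a2* and the sex chromosome genes are named, a choice made with their values seen. Culture values of *Rrm2*, *Foxm1*, *Kif11*, *Cdc20*, *Prc1*, *Ccnd2* and *Dut* were chosen for printing once seen.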

Additional observations from a re-analysis of the deposited data

How the results depend on the processing

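No mitosis member was called in 20 of 21 alternatives to the edgeR fit and no S-phase member in 19. DESeq2 called 1 S-phase member, and DESeq2 without WT replicate 1 called 16 mitosis members and 1 S-phase member. At an unadjusted p below 0.05 edgeR had 4 mitosis members and 1 S-phase member, all higher, as were 6.95% of all tested genes. The number of all genes called moved from 8 to 335 with DESeq2, 296 with no filter, 5 with the replicate block and 3 with limma on FPKM, and to 4 to 25 with one library left out. Alternatives chosen after seeing the data gave, for DESeq2, 946, 164 and 224 without WT replicates 1, 2 and 3 and 290, 128 and 51 without PB1_KO replicates 1, 2 and 3, and 33 for edgeR without WT replicate 2 and PB1_KO replicate 3. The count of S-phase members above 0, 13 in all cultures, was between 8 and 15 with one library left out, 8 with DESeq2 without WT replicate 3, 8 with DESeq2 without PB1_KO replicate 3 and 8 with edgeR without both. The mitosis median ranged from 0.04 to 0.28 and was 0.18 with the replicate block. The S-phase median ranged from -0.0033 (edgeR without both) to 0.10 and was 0.05 with the block. With one library left out *Mcm2* ranged from -0.021 to 0.089. It was below 0 without WT replicate 3 (-0.0055), without PB1_KO replicate 3, with DESeq2 without WT replicate 2 (-0.0038), WT replicate 3 (-0.0079) or PB1_KO replicate 3 (-0.023) and with edgeR without both (-0.049), as was *Ccnb1* with edgeR without both (-0.0029). The cause was not tested. Log2 fold changes kept their sign for the other 9 members named with culture values by rule. Between WT and PB1_KO cultures r across genes was -0.0218, 0.00782 and 0.0653 for the same replicate number and -0.053 to 0.0485 for different numbers, and no pairing was used. Depth does not limit the members, the lowest of which, *E2f2*, stood at 4.48 CPM or more.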
